A study of Mus musculus with 20 samples.

Results

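The genes described here are 47 ribosome biogenesis and nucleolar genes, of 24419 genes in the count table of cultured mouse hippocampal neurons. They are a fixed list of nucleolar RNA processing factors, RNA helicases and assembly factors, found by symbol, and 2 of them, Noc3l and Ddx10, were chosen by their measured counts, being lower with a zinc chelator than with zinc. All 47 were present and all 47 passed edgeR's expression filter. The cultures came from C57BL6 hippocampi at embryonic day 18, pooled from 4 embryos, and were held for 10 days in Neurobasal medium with B27. All had 4 µM cytosine arabinoside, which kills dividing cells, early in culture.

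There were 4 groups of 5 libraries. The TPA group had 1 min with 10 µM TPA (tris(2-pyridylmethyl)amine, a zinc chelator), then a 2-min pulse of 50 µM glutamate with TPA. The zinc group had the 2-min pulse of 50 µM glutamate with 10 µM ZnCl2, the glutamate group had 50 µM glutamate alone, and the control group had the medium alone. Polyadenylated RNA was taken after 90 min of recovery. Neither zinc nor TPA was given without glutamate in any group analysed here. The comparisons ask whether transcripts of the ribosome synthesis pathway respond to a short glutamate pulse and to the zinc present during it. Since the tissue was pooled, the p-values describe the spread among these libraries alone. A lower level in such a culture may be less RNA per cell or fewer cells of a type, which cannot be told apart.

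Ribosomes are built in the nucleolus. RNA polymerase I transcribes the precursor of the ribosomal RNAs, small nucleolar ribonucleoproteins (snoRNPs) modify it, and the small subunit processome and the large subunit assembly factors fold and cut it around the ribosomal proteins. In neurons the nucleolus is large, and ribosome synthesis is known to respond to growth factors and to activity. The precursor itself has no poly(A) tail, so these libraries measure the messenger RNAs of the factors and not ribosome synthesis.

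The promoters of Noc3l and Ddx10 are shown because these genes had the lowest values with TPA relative to zinc. The stretch between Noc4l and Ddx51 is shown because these members start from it in opposite directions. Sequences are from RefSeq, build GRCm38.p6, the same assembly as the mm10 build of the files, and 40 of the 47 members had a promoter window. Noc3l is on chromosome 19, 38788128 to 38819237, minus strand, and the bases before its start are chr19:38819238-38819487. Ddx10 is on chromosome 9, 53098454 to 53248112, minus strand, and the bases before its start are chr9:53248113-53248362. Noc4l (chromosome 5, 110648419 to 110653382, minus strand) and Ddx51 (chromosome 5, 110653451 to 110660496, plus strand) start back to back, and chr5:110653383-110653450, on the plus strand, is all that lies between them. Capitals mark a match, on either strand, to the core of the metal response element (TGCACNC or TGCGCNC) in Noc3l and Ddx10, and to the cyclic AMP response element (TGACGTCA) between Noc4l and Ddx51.
Noc3l: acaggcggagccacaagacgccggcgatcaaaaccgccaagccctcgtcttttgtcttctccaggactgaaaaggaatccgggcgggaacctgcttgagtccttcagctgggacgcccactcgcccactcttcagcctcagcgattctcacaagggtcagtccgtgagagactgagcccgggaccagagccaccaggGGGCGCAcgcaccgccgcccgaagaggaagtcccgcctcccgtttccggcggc
Ddx10: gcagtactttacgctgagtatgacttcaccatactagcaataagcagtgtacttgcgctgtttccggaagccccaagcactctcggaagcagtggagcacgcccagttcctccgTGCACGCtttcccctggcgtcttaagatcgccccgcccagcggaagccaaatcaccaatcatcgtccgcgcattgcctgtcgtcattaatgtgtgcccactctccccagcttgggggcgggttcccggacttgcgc
Noc4l/Ddx51: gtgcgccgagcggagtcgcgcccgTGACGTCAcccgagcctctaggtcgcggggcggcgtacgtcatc

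The metal response core is short, and 12 of the 40 members with a window held it (30%), against 29.3% of 17224 genes with a window. Windows ran from 250 bases before to 50 bases after the start, 300 bases in all, and both strands were searched. TGACGTCA was present for 3 members, Noc4l, Ddx49 and Ddx51 (7.5%), against 2.42% of all genes, and since Noc4l and Ddx51 share it these are not independent sites. The E-box CACGTG, the site read by MYC and other factors, was present for 6 members (15%), against 8.17% of all genes. The ETS-family site CCGGAAGT was present for 9 members (22.5%), against 5.27% of all genes. The median GC content of the windows was 59.2% for the members and 56.3% for all genes. Each motif was searched apart, overlaps between matches were not removed, and a match is a description of the letters alone.

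At the level of deposited TPM, a unit scaled for gene length, the members were well above the middle of the transcriptome, with a median of 41.5 TPM against 22.1 TPM (median of all 14411 genes tested). Together they held 0.227% to 0.254% of each library's counts. The 3 highest were the abundant nucleolar chaperone and RNA-binding genes Npm1 (nucleophosmin, mean 333.5 TPM over the 20 libraries, range 304.5 to 375.9), Ncl (nucleolin, 176.5 TPM, 165.7 to 193.7) and Nop56 (143.3 TPM, 129.8 to 160.6). The 3 lowest were Polr1e (8.24 TPM, 7.47 to 10.4), Utp20 (8.90 TPM, 7.38 to 9.87) and Heatr1 (10.6 TPM, 9.35 to 11.7). Every member had counts in every library, and its TPM varied across the 20 libraries by 1.12-fold (Wdr12 and Ddx21, highest over lowest) to 1.57-fold (Gar1).

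By role, the RNA polymerase I subunits were among the lowest transcripts. The catalytic subunits Polr1a and Polr1b had 26.0 and 15.8 TPM, and Polr1e, an accessory subunit, was the lowest of all members. Of the box C/D snoRNP genes, most of which serve ribosomal RNA methylation, Nop56 led Nop58 (97.5 TPM), the methyltransferase Fbl (77.6 TPM) and Rrp9 (40.04 TPM). Of the box H/ACA genes, which serve pseudouridylation, Nhp2 had 113.3 TPM and the chaperone Nolc1 had 70.1 TPM, while the pseudouridine synthase Dkc1 and its partner Gar1 had 22.6 and 21.1 TPM.

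The 16 genes of the small subunit processome spanned 8.90 to 63.9 TPM. Ddx47, Noc4l, Nop14 and Utp3 had 57.7 to 63.9 TPM, and Ddx49, Wdr36, Wdr75, Utp6 and Utp18 had 41.5 to 48.5 TPM. Rrp12 and Wdr43 had 35.04 and 34.53 TPM, the helicases Ddx10 and Ddx52 and the scaffold gene Utp15 had 23.8 to 26.1 TPM, and the very long repeat proteins Heatr1 and Utp20 closed the order. The 17 genes of large subunit assembly spanned 10.7 to 92.2 TPM. Noc2l led, followed by Bop1 (80.3 TPM), whose product forms the PeBoW complex with those of Pes1 (56.9 TPM) and Wdr12 (27.9 TPM). Nop16, the RNA methyltransferase Nop2, the helicase Ddx54, the GTPase Gnl3 (nucleostemin) and Mrto4 had 46.1 to 57.7 TPM. Ddx27, Ddx56 and Rrs1 had 36.6 to 41.0 TPM, Brix1 and Ddx18 had 24.46 and 21.99 TPM, and Noc3l (14.8 TPM), Nle1 (11.99 TPM) and Ddx51 (10.7 TPM) were lowest. Ddx21, a helicase that also acts in RNA polymerase II transcription, had 34.7 TPM.

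**Figure D1:**
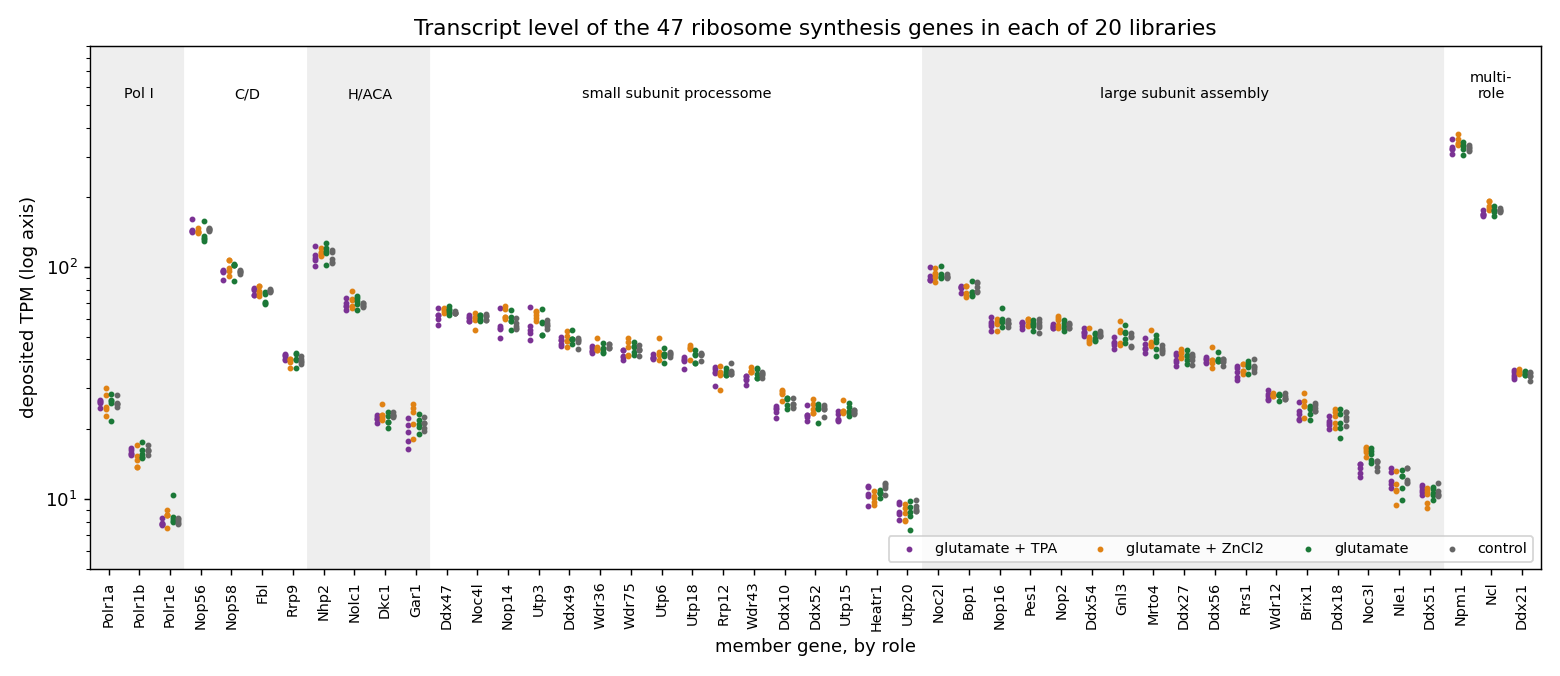
Deposited TPM (log axis) of the 47 members in each of the 20 libraries, ordered by role and level, each point 1 library coloured by group. Npm1 stands at the top with a mean of 333.5 TPM and Polr1e at the bottom with 8.24 TPM, and the groups lie on top of each other for nearly every gene.

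Library totals were 28692470 to 38767979 counts with TPA, 33445137 to 38435627 with zinc, 35559330 to 40934630 with glutamate and 36106575 to 39765787 in control, and the members had between 181 (Nle1) and 20108 (Ncl) counts in a library. The label of the culture was checked against its markers. The summed level of 10 neuron markers was 7478 to 8638 CPM (counts scaled by TMM to a common library size) over all libraries. That of 9 astrocyte markers was 748.2 to 963.6 CPM and that of 9 microglia markers 2.84 to 4.87 CPM. Of those 9, 8 were below 0.5 CPM on average over the 20 libraries. Glutamate-responsive early genes were used as a check of the treatment: Fosb had 18.7 ± 3.07 CPM with glutamate and 8.05 ± 0.693 CPM in control (SD, n = 5 each; edgeR adjusted p = 1.31e-05). Of 12 such genes 12 were higher with glutamate, and 2 of them (Fosb and Klf4) had an edgeR adjusted p under 0.05, beside 0.0208% of all genes. Fos did not (edgeR adjusted p = 0.0502).

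A brief glutamate pulse was followed by no detected change in any of the 47 genes after 90 min. By edgeR's quasi-likelihood test with Benjamini-Hochberg adjustment over all genes, 0 of 47 members passed the 0.05 threshold, where 0.0208% of the 14411 genes did (3 genes). DESeq2 and limma-voom also called 0 members, beside 0.0837% and 0.0278% of all genes. By edgeR 3 members had an unadjusted p under 0.05, against 4.98% of all genes. Of the 47 fold changes 21 were positive and 26 negative, where 51.1% of all genes were negative, with a median log2 fold change of -0.0075 beside -0.002 over all genes. That median was 0.0139 without control replicate 4, 0.0053 without glutamate replicate 3 and 0.0048 without glutamate replicate 5, and between -0.0181 and -0.0038 without any other single library of these groups. The 95% intervals of the fold changes lay between 0.828 (Nle1) and 1.17 (Polr1e), so larger changes were outside the interval of every member. For 0 members did the 5 glutamate and the 5 control libraries not overlap, beside 0.985% of all genes.

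The smallest p-values after glutamate belonged to Fbl, the methyltransferase of box C/D snoRNPs (chromosome 7, 28169748 to 28179269), Noc3l and Heatr1. Fbl had 29.0, 26.7, 26.5, 30.4 and 26.9 CPM with glutamate, against 30.3, 31.2, 30.1, 30.7 and 30.8 CPM in control. Glutamate replicate 4 lay among the controls and the other 4 glutamate libraries lay below all of them (log2 fold change -0.13, SE 0.044, edgeR adjusted p = 0.889). Heatr1, a large scaffold protein of the early processome (chromosome 13, 12395375 to 12438893), had 23.5, 23.8, 23.4, 22.8 and 24.7 CPM with glutamate, against 25.9, 25.9, 26.5, 23.7 and 25.3 CPM in control. Control replicate 4 lay within the glutamate range and the other 4 control libraries above it (log2 fold change -0.11, SE 0.05, adjusted p = 0.95).

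Nop56, the scaffold partner of Fbl, averaged 86.3 ± 8.04 CPM with glutamate and 91.8 ± 0.898 CPM in control (SD, n = 5 each; a log2 fold change of -0.089 with SE 0.05, adjusted p = 0.95). Its glutamate libraries spread from 79.5 to 100 CPM, the highest being replicate 4, while the controls lay within 91.0 to 93.2 CPM. Noc3l, which escorts large subunit precursors out of the nucleolus in yeast, averaged 20.3 ± 1.01 CPM with glutamate and 18.7 ± 0.764 CPM in control (SD, n = 5 each; a log2 fold change of 0.12 with SE 0.048, adjusted p = 0.95). Ddx10, homologous to a yeast processome helicase, averaged 29.2 ± 1.5 CPM with glutamate and 28.9 ± 1.16 CPM in control (SD, n = 5 each; a log2 fold change of 0.016 with SE 0.047, adjusted p = 0.992). For both genes the groups overlapped.

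Glutamate with zinc, set against control, also gave 0 of 47 members past the threshold, where 0.0416% of all genes passed (6 genes). DESeq2 called 1 member, which was Noc3l, beside 0.448% of all genes, and limma-voom called 0, beside 0.0555%. Noc3l and Ddx10 were picked with zinc libraries in view, so nothing is read from that call. Leaving both out, 4 of 45 members had an unadjusted edgeR p under 0.05, beside 11.1% of all genes. Positive fold changes were given by 31 of the 47 members and by 50.7% of all genes, and the members' median log2 fold change was 0.035 beside 0.0016. Noc3l and Ddx10 were among the 31, and without them the median was 0.033. All 4 box H/ACA genes and all 3 multi-role genes were on the positive side, the lowest of the former being Dkc1 at 0.0065. So were 11 of 16 processome genes and 10 of 17 large subunit genes. The box C/D genes were split 2 and 2, and the RNA polymerase I genes 1 positive and 2 negative. The 95% intervals lay between 0.786 (Nle1) and 1.23 (Gar1).

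Heatr1 was again on the low side, at 21.8, 22.5, 21.2, 24.6 and 23.4 CPM with zinc, against the control values above (log2 fold change -0.17, SE 0.051, adjusted p = 0.258). Zinc replicate 4 lay within the control range and the other 4 lay below it. Nop14, a processome scaffold, had 55.0, 58.9, 54.9, 61.6 and 54.2 CPM with zinc, against 53.8, 51.6, 50.4, 49.5 and 48.8 CPM in control. The lowest zinc library was just above the highest control library (log2 fold change 0.16, SE 0.066, adjusted p = 0.372). Npm1 averaged 200.4 ± 10.3 CPM with zinc and 186.7 ± 5.57 CPM in control (SD, n = 5 each; a log2 fold change of 0.10 with SE 0.047, adjusted p = 0.435), with overlapping groups. Nop14 and Noc3l were the members whose groups did not overlap, 2 of 47 and both higher, beside 1.31% of all genes that were higher and 2.66% in either direction. Noc3l and Ddx10 aside it was 1 of 45.

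Glutamate with TPA, set against control, gave 0 of 47 members past the threshold, where 0.0694% of all genes passed (10 genes). DESeq2 and limma-voom called 0 members, beside 0.0495% and 0.0694% of all genes. By edgeR 0 members had an unadjusted p under 0.05, beside 3.09% of all genes. Negative fold changes were given by 33 of the 47 members and by 50.7% of all genes, with a median log2 fold change of -0.023 beside -0.001. Noc3l and Ddx10, picked with TPA libraries in view, were among the 33, and without them the median was -0.022. The median of all 47 was -0.0391 without TPA replicate 1 and -0.0133 without TPA replicate 2. In the small subunit processome 15 of 16 genes were negative (median -0.051, lowest Heatr1). The 95% intervals of all members lay between 0.809 (Gar1) and 1.13 (Mrto4), and for 0 members did the groups not overlap, beside 1.33% of all genes.

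Heatr1 had 21.4, 24.9, 23.8, 25.7 and 23.3 CPM with TPA, overlapping the control libraries (log2 fold change -0.10, SE 0.051, adjusted p = 1). Wdr43, which binds the precursor RNA in the processome, averaged 37.8 ± 0.985 CPM with TPA and 39.6 ± 1.02 CPM in control (SD, n = 5 each; a log2 fold change of -0.067 with SE 0.037, adjusted p = 1). Rrs1, which brings the 5S particle into the large subunit, averaged 24.0 ± 1.44 CPM with TPA and 25.4 ± 1.03 CPM in control (SD, n = 5 each; a log2 fold change of -0.085 with SE 0.048, adjusted p = 1). Heatr1 was thus below control on average in each of the 3 glutamate groups, which share their control libraries, and in none of these comparisons did it pass the threshold.

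Zinc added to glutamate, set against glutamate alone, gave 0 of 47 members past the threshold, where 0% of all genes passed. DESeq2 and limma-voom called 0 members, beside 0.00495% and 0% of all genes. Noc3l and Ddx10 aside, 4 of 45 had an unadjusted p under 0.05 in edgeR, beside 5.98% of all genes. Positive fold changes were given by 36 of the 47 members and by 50.3% of all genes (median log2 fold change 0.027 beside 0.0006). Noc3l and Ddx10, picked with zinc libraries in view, were among the 36, and without them the median was 0.026. The median of all 47 was 0.0458 without glutamate replicate 2 and 0.0412 without glutamate replicate 4. Both large groups leaned this way, with 13 of 16 processome genes and 13 of 17 large subunit genes positive. The 95% intervals lay between 0.835 (Nle1) and 1.23 (Gar1).

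Fbl had 29.8, 30.0, 32.1, 29.3 and 32.1 CPM with zinc, close to its control level, against the lower glutamate values above (log2 fold change 0.13, SE 0.044, adjusted p = 0.74). Ncl had 491.6, 499.8, 529.9, 488.8 and 535.3 CPM with zinc, against 479.3, 496.9, 460.1, 487.3 and 459.5 CPM with glutamate (log2 fold change 0.095, SE 0.035, adjusted p = 0.741). Only glutamate replicate 2 reached into the zinc range. Utp18, a beta-propeller protein of the processome, averaged 38.3 ± 2.03 CPM with zinc and 35.4 ± 2.24 CPM with glutamate (SD, n = 5 each; a log2 fold change of 0.11 with SE 0.047, adjusted p = 0.758). The groups did not separate for any member, beside 0.701% of all genes.

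TPA added to glutamate, set against glutamate alone, gave 0 of 47 members past the threshold, where 0% of all genes passed. DESeq2 and limma-voom called 0 members, beside 0.00495% and 0% of all genes. Noc3l and Ddx10 aside, 1 of 45 had an unadjusted p under 0.05 in edgeR, beside 7.15% of all genes. The fold changes were split, 20 positive and 27 negative, where 51.3% of all genes were positive, with a median log2 fold change of -0.012 beside 0.0025. Noc3l and Ddx10, picked with TPA libraries in view, were among the 27, and without them the median was -0.011. With single libraries left out the median of all 47 ran from -0.025 (without TPA replicate 1) to -0.0026 (without TPA replicate 5). The 95% intervals lay between 0.810 (Gar1) and 1.18 (Nle1). The box C/D genes, 3 of 4 positive, and the processome, 11 of 16 negative, leaned opposite ways.

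Fbl had 31.6, 28.8, 29.5, 30.8 and 31.1 CPM with TPA, against the glutamate values above (log2 fold change 0.12, SE 0.044, adjusted p = 0.656). Fbl was thus lowest on average in the glutamate group of all 4 groups, and in no comparison past the threshold. Its comparisons of glutamate with control, zinc and TPA share the same glutamate libraries. Utp15 averaged 30.6 ± 1.04 CPM with TPA and 32.5 ± 1.5 CPM with glutamate (SD, n = 5 each; a log2 fold change of -0.088 with SE 0.043, adjusted p = 0.699). Nop56 had 102.8, 88.4, 90.1, 90.4 and 90.8 CPM with TPA, against 83.1, 82.6, 79.5, 100 and 86.3 CPM with glutamate (log2 fold change 0.10, SE 0.05, adjusted p = 0.702). TPA replicate 1 and glutamate replicate 4 stood above the rest of their groups. Without the 3 libraries that lay farthest from the mean of their own group (glutamate replicates 4 and 5 and zinc replicate 5), Nop56 was past the threshold (log2 fold change 0.18, edgeR adjusted p = 0.0257), as were 3.79% of all genes.

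**Figure D2:**
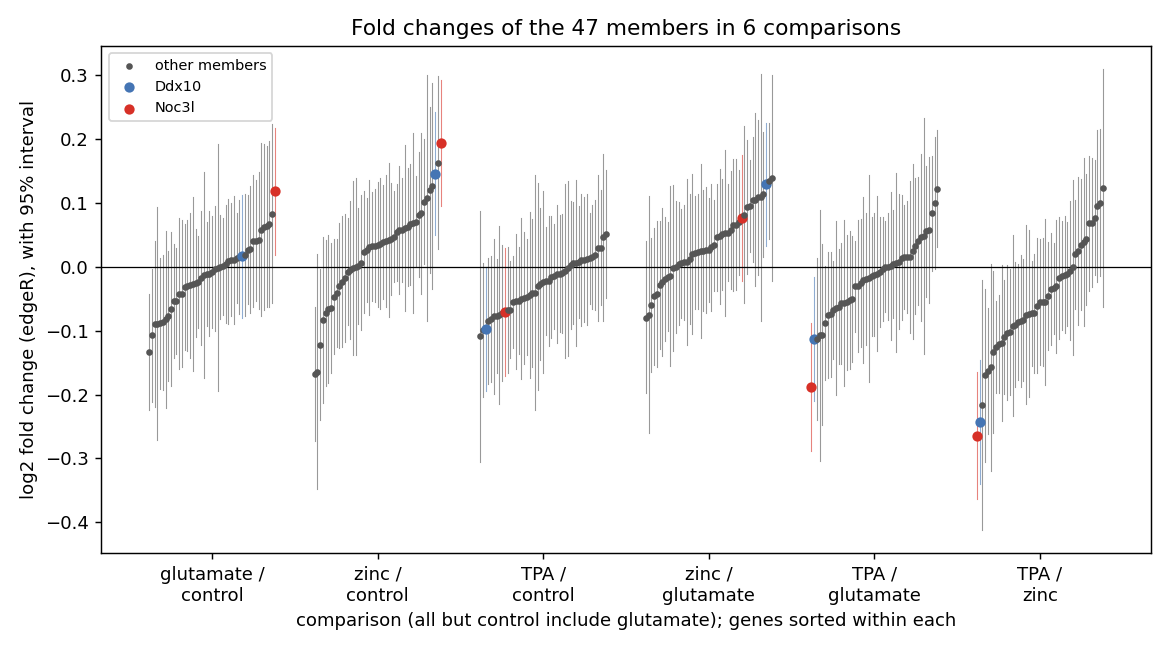
Log2 fold changes of the 47 members in 6 comparisons (points, sorted within each comparison) with 95% intervals (lines), Noc3l and Ddx10 coloured. Most points lie within 0.2 of 0. Noc3l and Ddx10 are the lowest points of TPA against zinc, the contrast that picked them.

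The comparison of TPA with zinc during glutamate is the contrast in which Noc3l and Ddx10 were picked, so its values are a description and carry no test here. Noc3l had 16.6, 18.5, 18.2, 17.1 and 18.75 CPM with TPA, against 20.1, 22, 22.1, 21.3 and 21.7 CPM with zinc (log2 fold change -0.26, SE 0.048). The glutamate libraries had 20.4, 21.7, 20.8, 19.1 and 19.7 CPM and the control libraries 19.1, 19.3, 19.4, 17.6 and 18.2 CPM. Every TPA library was below every zinc and every glutamate library, and TPA and control overlapped. Against control the log2 fold change was -0.07 (SE 0.049) with TPA, 0.19 (SE 0.048) with zinc and 0.12 with glutamate, and against glutamate it was -0.19 (SE 0.048) with TPA. In the TPA to glutamate comparison Noc3l was the member whose groups did not overlap, 1 of 47 and lower, beside 0.527% of all genes that were lower and 1.03% in either direction. It was picked with these TPA libraries in view, so nothing is read from that share, and 0 of the other 45 members were separated.

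Ddx10 had 28.5, 26.1, 27.8, 27.4 and 25.0 CPM with TPA, against 29.6, 32.75, 32.9, 32.03 and 32.4 CPM with zinc (log2 fold change -0.24, SE 0.047). The glutamate libraries had 29.8, 30.1, 27.7, 27.5 and 30.8 CPM and the control libraries 27.7, 28.9, 30.6, 29.2 and 27.8 CPM. All TPA libraries were below all zinc libraries, the nearest pair being TPA replicate 1 and zinc replicate 1, and the glutamate and control libraries overlapped both. Against control the log2 fold change was -0.097 (SE 0.047) with TPA and 0.15 (SE 0.047) with zinc. The separation of TPA from zinc was thus made up of a mean below control with TPA and a mean above control with zinc.

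**Figure D3:**
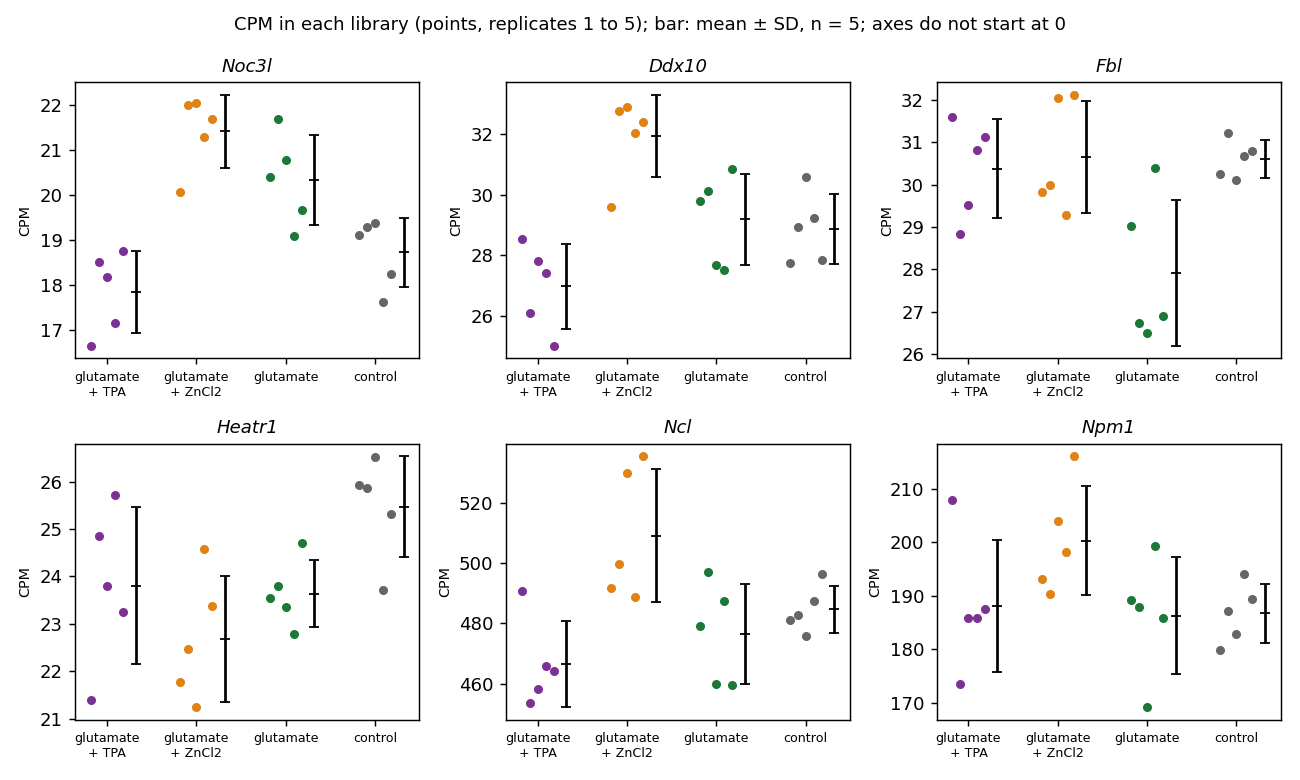
CPM of 6 members in each library (points, replicates 1 to 5 from left to right) with the mean and SD of each group (bars, n = 5); the vertical axes do not start at 0. Noc3l and Ddx10 are low with TPA and high with zinc, Fbl is lowest with glutamate, Heatr1 is highest in control, and Ncl and Npm1 have their highest means with zinc.

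Past the threshold between TPA and zinc were 2 of 47 members (Noc3l and Ddx10, both lower), beside 0.16% of all genes that were lower and 0.513% in either direction (74 genes). Both were picked on this contrast, so nothing is read from that share, and 0 of the other 45 members passed. The count of members was 0 without zinc replicate 2 or 3, where 14 and 5 of all genes passed, and 1 without TPA replicate 2 or 5, where 16 and 15 did. It was 4 without zinc replicate 4, where 899 of all genes passed (6.2%). Of the members that did not pass it, the largest change was that of Gar1 at 8.22 ± 1.11 CPM with TPA and 9.60 ± 1.32 CPM with zinc (SD, n = 5 each; log2 fold change -0.22, SE 0.095), followed by Nop14 at 50.6 ± 6.24 CPM with TPA and 56.9 ± 3.2 CPM with zinc (-0.17, SE 0.066) and Utp18 at 34.2 ± 1.37 CPM with TPA and 38.3 ± 2.03 CPM with zinc (-0.16, SE 0.048). Next were Utp3 at 29.6 ± 4.11 CPM with TPA and 33.0 ± 1.59 CPM with zinc (-0.16, SE 0.078), and Gnl3 at 30.4 ± 1.71 CPM with TPA and 33.4 ± 3.08 CPM with zinc (-0.13, SE 0.061). For these 5 genes the groups overlapped. TPA replicate 1 was the highest TPA library for Gar1 (9.61 CPM), Nop14 (61.0 CPM), Utp3 (36.4 CPM) and Gnl3 (32.8 CPM), and it was above 4 of 5 zinc libraries for Nop14 and above all 5 for Utp3. Groups did not overlap for 3 of 47 members (Noc3l, Ddx10 and Wdr43, all lower with TPA), beside 1.14% of all genes that were lower and 3.12% in either direction. Of the 45 members that were not picked it was 1, Wdr43, and as the rule used this contrast nothing is read from the share.

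The fold changes of the members as a whole leaned low, with 36 of 47 negative, against 50.3% of all genes, and a median log2 fold change of -0.055 beside -0.0012. Noc3l and Ddx10 were among the 36, and without them the median was -0.0552. As the rule used this contrast, nothing is read from the share or from the counts by role. All 4 box H/ACA genes, all 3 multi-role genes, 12 of 16 processome genes (median -0.094) and 13 of 17 large subunit genes (median -0.035) were negative, and the box C/D genes were split 2 and 2. The mean log2 deviation of the members from their own averages was -0.025 ± 0.03 in TPA libraries, 0.028 ± 0.025 in zinc libraries, -0.0078 ± 0.035 in glutamate libraries and 0.0052 ± 0.0096 in control libraries (SD, n = 5 each). TPA replicate 1 lay among the zinc libraries at 0.018 and zinc replicate 1 among the TPA libraries at -0.011. Glutamate libraries spread as widely as both, from -0.058 (replicate 3) to 0.037 (replicate 4).

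**Figure D4:**
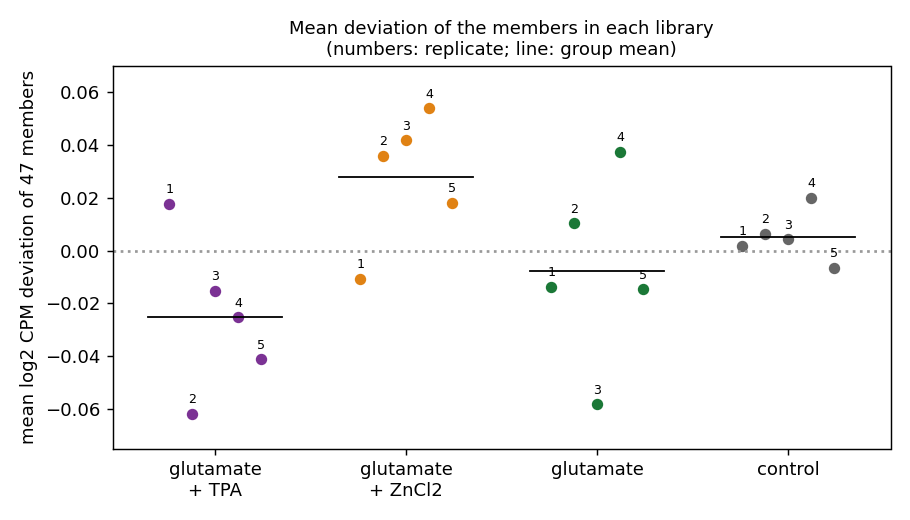
Mean log2 CPM deviation of the 47 members in each library (points with replicate numbers) and the mean of each group (lines). Zinc libraries are mostly above 0 and TPA libraries mostly below, with replicate 1 of each group in the other's range, and glutamate libraries span from -0.058 to 0.037.

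Base composition moved with these fold changes. The members' transcripts ranged from 40.4% to 59.9% GC (median 50.2%, 49.7% over all genes), and Noc3l and Ddx10 had 43.7% and 42.8%. Across genes, the correlation of the TPA to zinc log2 fold change with transcript GC was 0.491 over the 47 members and 0.241 over 14318 genes, a description of genes that share the same libraries. Over the members it was 0.434 for TPA against control, -0.333 for zinc against control, 0.316 for TPA against glutamate, -0.431 for zinc against glutamate and -0.027 for glutamate against control. With an offset for GC in each library, the log2 fold change of Noc3l between TPA and zinc was -0.22 and that of Ddx10 -0.2. Then 0 members were past the threshold, and of all genes 12 were, against 74 without the offset. The members' median log2 fold change was -0.054 with the offset and -0.055 without it. Negative fold changes were given by 38 of 47 members with the offset and by 36 without it, Noc3l and Ddx10 included in both. The part of base composition in the lower values with TPA was not tested beyond this.

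**Figure D5:**
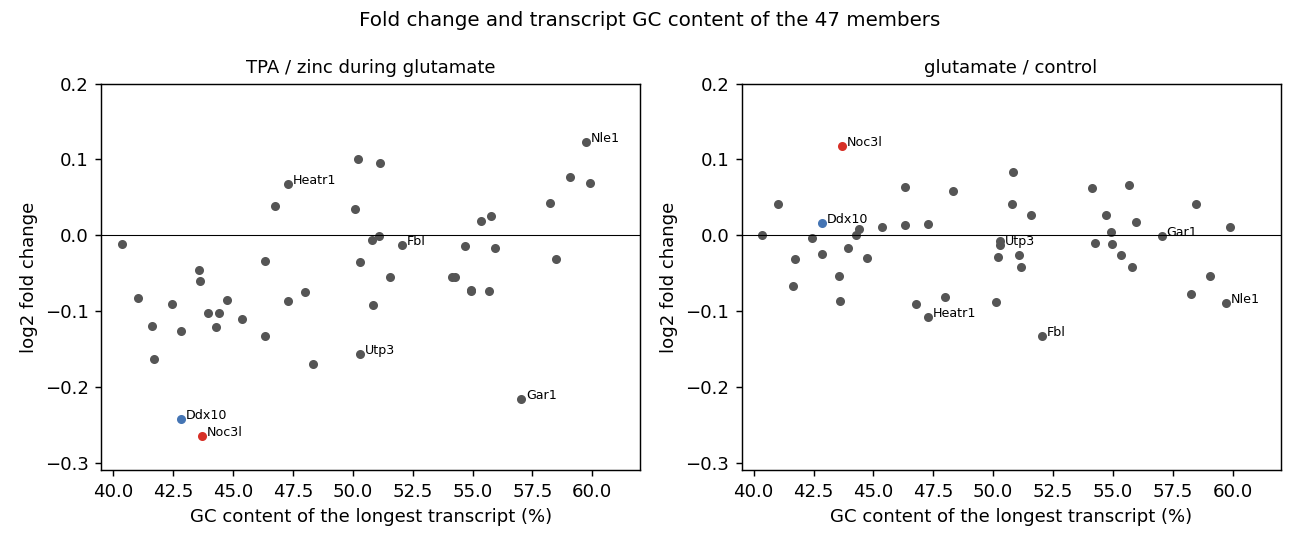
Log2 fold change of each member against the GC content of its longest transcript, for TPA against zinc (left) and glutamate against control (right). On the left, members under 46% GC all lie below 0, with Noc3l and Ddx10 lowest, and the correlation across genes is 0.491. On the right it is -0.027.

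Other genes of the pathway were counted from lists of known factors. Of 18 other RNA polymerase I transcription genes, 13 other snoRNP factors, 49 other small subunit factors, 50 other large subunit factors, 15 exosome and processing nucleases and 24 growth regulators of ribosome synthesis, none passed the threshold in the comparisons with control or with glutamate. For glutamate against control, 6 of these 169 genes had an unadjusted edgeR p under 0.05, beside 4.98% of all genes. That was the fewest in those comparisons, and the most was 21 for zinc against control, beside 11.1% of all genes. Between TPA and zinc 48 had one, where 16% of all genes did. Between TPA and zinc, 1 of these 169 genes passed the threshold, the large subunit factor Cebpz, which was lower. Among all genes 0.16% passed it and were lower, and 0.513% passed in either direction. These lists were chosen with earlier results known, so nothing is read from that share or from the call of Cebpz. Cebpz had 61.0, 56.2, 58.0, 55.8 and 55.6 CPM with TPA, against 65.9, 64.6, 67.2, 62.7 and 62.4 CPM with zinc (log2 fold change -0.17, SE 0.037). Its groups did not overlap, and 1.14% of all genes were lower with no overlap. Negative fold changes between TPA and zinc were given by 37 of 49 other small subunit factors (median -0.045), 34 of 50 other large subunit factors (median -0.072) and 12 of 15 exosome genes and nucleases (median -0.058). The RNA polymerase I genes were split 8 positive and 10 negative, and the growth regulators 12 and 12 (median -0.01).

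Markers of dividing cells, in which ribosome synthesis is high, had a summed level of 68.9 to 74.1 CPM with TPA and 71.0 to 78.8 CPM with zinc over 14 genes. Cdk1, Ccnb1 and Aurkb were below 0.5 CPM on average over the 20 libraries. Of the 14, 6 had a positive and 8 a negative fold change between TPA and zinc (median log2 fold change -0.014), and 7 and 7 between zinc and control. Past the threshold, 2 of the 14 fell with TPA relative to zinc, beside 0.16% of all genes. The list was chosen with earlier results of these data known, so nothing is read from that share or from the calls of its genes. Hmgb2, a chromatin protein of proliferating cells, had 2.52 ± 0.297 CPM with TPA and 4.30 ± 0.353 CPM with zinc (SD, n = 5 each, log2 fold change -0.77, SE 0.12). Nusap1, a spindle protein, had 1.89 ± 0.0421 CPM with TPA and 2.69 ± 0.312 CPM with zinc (SD, n = 5 each, log2 fold change -0.50, SE 0.1). Hmgb2 also rose with zinc relative to control (4.30 ± 0.353 CPM with zinc, 2.45 ± 0.141 CPM in control, n = 5 each; edgeR adjusted p = 0.00304). The part of dividing cells in the members' values was not tested. Early response genes went the other way, with 12 of 12 positive between TPA and zinc (median log2 fold change 0.32) and 1 past the threshold, the transcription factor gene Klf4 (2.29 ± 0.138 CPM with TPA, 1.22 ± 0.304 CPM with zinc). Among all genes 0.513% passed in either direction, and this list too was chosen with earlier results known.

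In the authors' deposited tables, which hold the authors' own fold changes and p-values, 0 of the 47 members had an adjusted p under 0.05 for glutamate against control, where 11 of all genes did, and 1 (Noc3l) had one for zinc against control, where 59 did. The authors' deposited tables listed 0 members for TPA against control (10 genes) and for zinc or TPA against glutamate (1 gene each). For TPA against zinc they listed 4 (Utp18, Ddx10, Noc3l and Ncl), where 456 genes were listed. Noc3l and Ddx10 were picked on this contrast in the same libraries, so their entries are no independent check. The entry of Noc3l for zinc against control shares the zinc libraries. Nothing is read from these calls or from the count of 4. No share of all genes is given for these tables. The log2 fold change of Noc3l between TPA and zinc was -0.22 in the authors' deposited table, with the sign turned since that table runs zinc over TPA, and that of Ddx10 was -0.2. The edgeR values here were -0.26 and -0.24. These estimates come from different tools, and the reason for the difference was not tested.

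Gene structure limits some of these counts. By the GENCODE annotation, 11 members share exonic bases with a gene on the opposite strand, the longest overlaps being 713 bases of Ddx49 with Homer3 and 598 bases of Noc2l with Samd11, and the strand setting of the read counting was not stated in the material used. Noc3l and Ddx10 are not among the 11. Small nucleolar RNA genes lie inside 5 members on the same strand, 2 each in Gnl3, Ncl, Nop56, Nop58 and Wdr43, so these genes both encode nucleolar proteins and host guide RNAs. Of 15 other snoRNA host genes tested, 11 were negative between TPA and zinc (median log2 fold change -0.06) and none passed the threshold.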

How the data were processed

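Polyadenylated RNA was sequenced in 20 libraries, 5 per group. Per the submitters' processing notes reads were handled with HISAT2 2.1.0 and Trimmomatic 0.36, featureCounts and SAMtools 1.3.1, and DESeq2 1.14.1 in R 3.3.0, on mm10. The authors deposited whole-number gene counts, which alone entered tests here, and TPM, which they scaled by gene length. In the authors' deposited comparison tables the columns are a mean normalized signal, a log2 fold change, a Wald score, and p-values. Counts were scaled by TMM and 14411 genes passed edgeR's default filter, with 99.98% of the counts. A single edgeR 4.0.16 quasi-likelihood model (R 4.3.3) of 4 group means gave every contrast, with Benjamini-Hochberg adjustment over all genes and a threshold of 0.05. The members and lists were chosen with earlier results of these data known, so no list test was run, and for Noc3l and Ddx10 no p is given where TPA or zinc libraries enter; counts of calls that include them are descriptions. Fold changes are named for those 2, for up to 3 members with the smallest p per comparison, and for the 5 largest between TPA and zinc. Alternatives were DESeq2 1.42.0, limma-voom (limma 3.58.1), other scalings and filters, a replicate block, fits of 2 groups alone and leaving out libraries. Those added after seeing the data were a GC offset, library weights and leaving out 3 libraries.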

Additional observations from a re-analysis of the deposited data

Results flagged for a closer look

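Dixon's test at 95% was applied to the 5 libraries of each group for the 47 members and their mean, 192 sets in all, of which 15 held a library far from the others. Chance gives about 1 in 20, or 10. With TPA, replicate 1 was far above the rest for Nop56 (102.8 CPM) and Utp6 (55.4 CPM). With zinc, replicate 4 was far above for Nop56 (94.2 CPM) and Mrto4 (21.9 CPM). Zinc replicate 5 was far above for Utp15 (36.5 CPM) and Wdr36 (59.0 CPM) and far below for Polr1e (9.23 CPM), and zinc replicate 1 was far below for Ddx10 (29.6 CPM). With glutamate, replicate 4 was far above for Polr1e (12.8 CPM), Ddx49 (37.8 CPM) and Noc2l (94.4 CPM), and replicate 5 far below for Nop58 (57.9 CPM) and Ddx52 (22.6 CPM). In control, replicate 1 was far below for Utp18 (33.9 CPM) and replicate 3 for Ddx52 (23.9 CPM).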

How the results depend on the processing

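The count of 0 members past the threshold held under every alternative run for glutamate against control, for TPA against control and for zinc against glutamate. Of all genes at most 0.687%, 0.0851% and 0.742% passed in these comparisons, in that order. For zinc against control it was 1 with DESeq2 (0.448% of all genes passed) and 5 with library weights (Heatr1, Polr1b, Nop14, Ddx10 and Noc3l), where 12.7% of all genes passed. For TPA against glutamate it was 2 (Nop56 and Noc3l) with library weights (3.34% of all genes) and 2, the same genes, without the 3 libraries that lay farthest from the mean of their own group (3.79%). Noc3l and Ddx10 were picked with TPA and zinc libraries in view, so nothing is read from any of their calls. For TPA against zinc the 2 members became 0 in a fit of the 2 groups alone (6 of all genes passed), 4 with DESeq2 (481 genes, 4.26%), 0 with the GC offset (12 genes), 15 with library weights (3132 genes, 21.7%) and 3 without the 3 farthest libraries (1149 genes, 7.9%). With single libraries left out the count ran from 0 (without zinc replicate 2 or 3) to 4 (without zinc replicate 4, where 6.2% of all genes passed), and was 1 without TPA replicate 2 or 5. The cause was not tested. With the replicate block the count of members stayed at 2, while genes past the threshold numbered 423 against 74, and 39 against 6 for zinc against control. Of 30 same-numbered pairs, 11 had a correlation over 0.1 (-0.07 to 0.497, the highest between glutamate replicate 5 and zinc replicate 5). For 9 of 20 libraries the best match in another group had the same number. The main fit did not take the numbers as pairs, and whether same-numbered libraries share a factor was not tested. Of 357 alternative values of named fold changes that carry a test, 352 kept direction and side of the threshold and 4 passed it, and of 315 that carry none all kept direction. The fold change of Ddx10 after glutamate turned, its values with single libraries left out running from -0.0018 (without glutamate replicate 5) to 0.0384 (without glutamate replicate 4).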
